A study of Homo sapiens with 24 samples.

Results

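The hypoxia response and glycolysis genes followed here are a named list of 34 human genes, 34 of the 60623 genes in the largest table. They fall into 3 subunits of the hypoxia-inducible factor (HIF), 12 target genes of HIF, 3 sugar and lactate transporters and 16 glycolytic enzymes. The list is one of names, with no threshold on a measured value, but it was chosen with earlier results of these data known. Their mRNA was measured with stranded RNA libraries from 4 human lung cancer lines, 24 libraries in 8 groups of 3 that the series text calls independent biological replicates. A549 and H1299, lines of non-small cell lung cancer, were compared as control cells (genotype label WT) and as HEPACAM2 overexpressing cells (OE). DMS454 and H1694, lines of small cell lung cancer, were compared as control cells (WT) and as cells titled CRISPR with the genotype label HEPACAM2 knockdown. HEPACAM2 is a protein of the immunoglobulin superfamily. The labels name no low-oxygen or drug treatment in any group, give the medium only as that recommended by each supplier, and do not say whether the modified cells were clones or pools.

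HIF is a pair of proteins, an alpha subunit and ARNT. With oxygen present, the prolyl hydroxylases of the EGLN family mark the alpha subunit and the VHL complex sends it for destruction, so HIF activity is set largely by protein stability and not by the mRNA of HIF1A. When oxygen is short, HIF binds short core motifs near its target genes and raises glucose uptake, the enzymes that turn glucose into lactate, lactate export, pH control, vessel growth factors and the removal of mitochondria. Many tumour cells run glycolysis at a high rate with oxygen present, and the HIF targets among the glycolytic genes are then also set by other transcription factors.

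The core motifs bound by HIF, ACGTG and GCGTG, were searched on both strands in the 250 bases before each annotated RefSeq start (GRCh38.p14). They are shown for members with a match that were, in at least 2 lines, among the 6 called members with the largest change and a mean of at least 50 normalized counts. Each is printed 5′ to 3′ on the strand of its gene, with the motif or its reverse complement in capitals and the position of the first capital counted back from the start. Where matches on opposite strands overlap, as in CACGTG, both are counted.
ADM, chr11:10304960-10304988, plus strand, position -101: gagcaggagcgcGCGTGgctgaggaaaga
ALDOC, chr17:28577118-28577145, minus strand, position -240: aagtgcccggCACGTGgtaaagggattg
ALDOC, chr17:28576987-28577015, minus strand, position -108: ccgcctctgaggGCGTGgtcttgccccgg
ALDOC, chr17:28576915-28576944, minus strand, position -45: aggcCACGCccccggaggagtCACGTagct
PDK1, chr2:172556065-172556089, plus strand, position -17: ctgcccgcCACGTccctCACGTacc
PFKFB4, chr3:48556953-48556981, minus strand, position -166: tgagttgggcatGCGTGgtcggaggccgg
In GENCODE 29 the ADM, ALDOC and PDK1 stretches lie in an untranslated exon of at least 1 transcript of the same gene, and the PFKFB4 stretch lies within the gene outside its exons. PDK1 has a further RefSeq start (its 250 bases are chr2:172555123-172555372) with no match. HK1 had a match before 1 of its 7 starts, not shown, and SLC2A3 was not in the table. Of the 30 members found in the RefSeq promoter table, 25 (83.3%) had at least 1 match at 1 of their starts, compared with 9001 of 15842 protein-coding genes (56.8%). Counted by start, the shares were 34 of 52 (65.4%) and 10946 of 22198 (49.3%). A match describes the letters only.

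The targeted gene was checked first. HEPACAM2 was at 1.10, 0 and 0 normalized counts in the A549 controls and at 6074, 5864 and 6084 in the OE libraries. In H1299 it was at 3.49, 3.07 and 2.08 in the controls and 27257, 25000 and 23710.2 in the OE libraries. In DMS454 the labelled controls held 6430.1, 6543 and 6677 and the libraries labelled CRISPR 11460.0, 11256 and 10844 (adjusted p = 1.64e-07, log2 fold change 0.77, SE 0.04). In H1694 these were 3433, 3551 and 3688 against 10124, 10545 and 10399 (1.54, SE 0.04, adjusted p = 1.61e-12). The libraries labelled CRISPR thus held more of the mRNA, so every direction below for DMS454 and H1694 is labelled CRISPR minus labelled control and would turn if the titles were exchanged. In the authors' deposited table the log2 fold change of HEPACAM2 has the opposite sign, -0.77 in DMS454 and -1.54 in H1694. The deposited fold changes of the members called in these 2 lines are likewise opposite in sign to those below. Examples are PDK1 in DMS454 (0.54 in the deposited table) and EGLN3 in H1694 (0.97). The codes of the labelled control libraries carry G and those of the libraries labelled CRISPR carry pL, and the labels do not say what these letters stand for. Whether HEPACAM2 protein was lost was not measured.

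Levels are normalized counts, that is, reads divided by the size factors the authors set within each line. The H1694 libraries held 19682771 to 31770858 reads, those of DMS454 15652553 to 30241598, those of H1299 12704476 to 20332419 and those of A549 16358272 to 29838960. A change was called when limma on log2(normalized count + 1) gave an adjusted p under 0.05 over all genes of the line. In H1299 the libraries numbered 1 stood apart. The read-weighted GC content was 48.97% in control 1 against 47.91% and 47.84% in controls 2 and 3, and 48.14% in OE 1 against 49.25% and 49.22% in OE 2 and 3, and in the other lines it ran from 48.95% to 49.36%. In DMS454 the library labelled CRISPR 3 lay nearest the labelled controls for PFKP, PDK1, BNIP3, HK1 and ADM. The neuroendocrine marker genes took 1.05% of the reads in the DMS454 and 0.337% in the H1694 labelled controls, compared with 0.0602% and 0.0534% in the A549 and H1299 controls. The epithelial marker genes took 1.10% in the A549 and 0.0998% in the H1299 controls, and 0.288% in the DMS454 and 0.00160% in the H1694 labelled controls. All 6 had reads in each H1694 library. Among them KRT8 was abundant in A549 (85644 normalized counts in the controls) but averaged 6.24 in the H1694 labelled controls, and CDH1 averaged 7.27 there. Most of the small H1694 sum thus came from the other epithelial markers. The blood markers took 5.60e-05% in the H1694 labelled controls. CD3E was at 0 in all H1694 libraries, while other blood markers had reads in each.

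With HEPACAM2 overexpression in A549, 12 members rose and 9 fell, 21 of 34 tested, compared with 44.4% of all 16707 genes tested (22.5% higher and 21.9% lower). The changes were small and went both ways. EPAS1 and PFKFB4 rose the most, and ALDOC, SLC2A3, HK1 and SLC16A3 fell the most. The median log2 fold change of the members was 0.03 and that of all genes -0.0019. The median absolute change was 0.196 for the members and 0.206 for all genes. For 22 of the 34 members every OE library lay on 1 side of every control, compared with 51.8% of all genes tested.

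Among the HIF subunits in A549, EPAS1 (ENSG00000116016, chr2:46293667-46386703, GRCh38), which encodes HIF-2 alpha, was at 758, 707 and 775 normalized counts in the controls and 1498, 1385 and 1339 in the OE libraries (log2 fold change 0.91, SE 0.05, adjusted p = 1.67e-19). Its OE libraries all lay above its controls, at 1.88-fold. HIF1A, which encodes HIF-1 alpha, was at 4248, 4419 and 4143 normalized counts in the controls and 3846, 3903 and 3815 in the OE libraries and fell slightly (log2 fold change -0.15, SE 0.04, adjusted p = 0.00125). The ARNT groups overlapped, and ARNT was not called (-0.09, adjusted p = 0.231).

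Of the 12 genes listed as HIF targets, 3 rose, 3 fell and 6 were not called in A549. The transporters and glycolytic enzymes, some of which HIF also raises, are counted apart from these in every line. ADM (ENSG00000148926, chr11:10304680-10307397, GRCh38), a secreted peptide that widens blood vessels, was at 1464, 1390.2 and 1427 normalized counts in the controls and 1759.6, 1703 and 1829 in the OE libraries (log2 fold change 0.30, SE 0.05, adjusted p = 2.05e-07). The ADM groups did not overlap. KDM3A, a histone demethylase, rose by 0.37, and BNIP3, a receptor for the removal of mitochondria, by 0.13. CA12, a carbonic anhydrase of the cell surface that acts in pH control, was at 12238, 12512 and 11305 normalized counts in the controls and 7783, 7628 and 7427 in the OE libraries (log2 fold change -0.66, SE 0.04, adjusted p = 5.45e-20), and it was the most abundant target per length in this line. The oxygen-sensing hydroxylases EGLN1 (-0.38) and EGLN3 (-0.36) fell. VEGFA, NDRG1, PDK1, BNIP3L, CA9 and ANKRD37 were not called, with log2 fold changes from -0.20 (CA9) to 0.14 (ANKRD37).

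All 3 transporters were called in A549. SLC2A3 (ENSG00000059804, chr12:7919230-7936275, GRCh38), the high-affinity glucose transporter GLUT3, was at 2889, 2932 and 3026 normalized counts in the controls and 1685, 1511 and 1701 in the OE libraries (log2 fold change -0.85, SE 0.04, adjusted p = 2.55e-21). SLC16A3 (ENSG00000141526, chr17:82228397-82261129, GRCh38), the lactate exporter MCT4, was at 2468, 2506 and 2273 normalized counts in the controls and 1519, 1397 and 1413 in the OE libraries (log2 fold change -0.74, SE 0.05, adjusted p = 1.21e-18). Both fell with no overlap between the groups, by 1.81-fold and 1.67-fold. The widely expressed glucose transporter SLC2A1 (GLUT1) rose by 0.13 (adjusted p = 0.00792).

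Of the 16 glycolytic enzymes in A549, 7 rose, 3 fell and 6 were not called. HK1 (ENSG00000156515, chr10:69269984-69401884, GRCh38), the hexokinase that starts glucose breakdown in most cells, was at 1995, 2062 and 1811 normalized counts in the controls and 1177, 1164 and 1128 in the OE libraries (log2 fold change -0.76, SE 0.05, adjusted p = 3.44e-18). ALDOC (ENSG00000109107, chr17:28573115-28577264, GRCh38), the brain-type aldolase, was at 48.4, 52.9 and 55 normalized counts in the controls and 29.6, 23.3 and 25.7 in the OE libraries (log2 fold change -0.97, SE 0.22, adjusted p = 0.000295). Both fell, although ALDOC was a minor transcript at 0.896 RPKM (reads scaled by exon length in kilobases and by the total reads of the library) in the controls. The PFKFB enzymes make and break the signal molecule that switches phosphofructokinase on. PFKFB4 (ENSG00000114268, chr3:48517684-48562015, GRCh38) was at 74.8, 78.2 and 73.5 normalized counts in the controls and 128, 155 and 121 in the OE libraries (log2 fold change 0.82, SE 0.14, adjusted p = 4.26e-06). PFKFB3, at 70 RPKM in the controls compared with 0.623 for PFKFB4, rose by 0.53 and the platelet-type phosphofructokinase PFKP by 0.40, while the liver-type PFKL fell by 0.14 on the log2 scale. The later enzymes LDHA (0.26), PGAM1 (0.20), ENO1 (0.19) and GAPDH (0.15) also rose. GPI, TPI1, PGK1, PKM, ALDOA and HK2 were not called. The 16 enzymes together took 1.48% ± 0.0237 of the reads in the controls and 1.62% ± 0.0253 with OE (SD, n = 3), and the groups did not overlap.

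Of the 21 calls in A549, 19 held under every alternative in processing or library set except a size threshold. BNIP3 was lost with DESeq2 (adjusted p = 0.0828) and without control 1, control 3, OE 1 or OE 3 (0.0597 to 0.154), and EGLN3 without control 2 or OE 3 (0.0529 and 0.0649). In the authors' deposited table the adjusted p was 0.1015 for BNIP3 and 0.0619 for EGLN3. Of the epithelial markers in A549, 5 of 6 were lower with OE, and their summed share of reads was 1.09% to 1.11% in the controls and 0.977% to 1.01% with OE. The summed fibroblast markers took 0.00159% to 0.00175% of the reads in the controls and 0.0103% to 0.0112% with OE, led by COL1A1 (257 and 2102 normalized counts), with COL1A2 and DCN without a row in the table. The neuroendocrine markers took 0.0569% to 0.0625% and 0.0508% to 0.0547%. The part of these markers in the changes of the members was not tested. In bulk RNA, fewer cells of a type and less RNA per cell cannot be told apart.

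**Figure D1:**
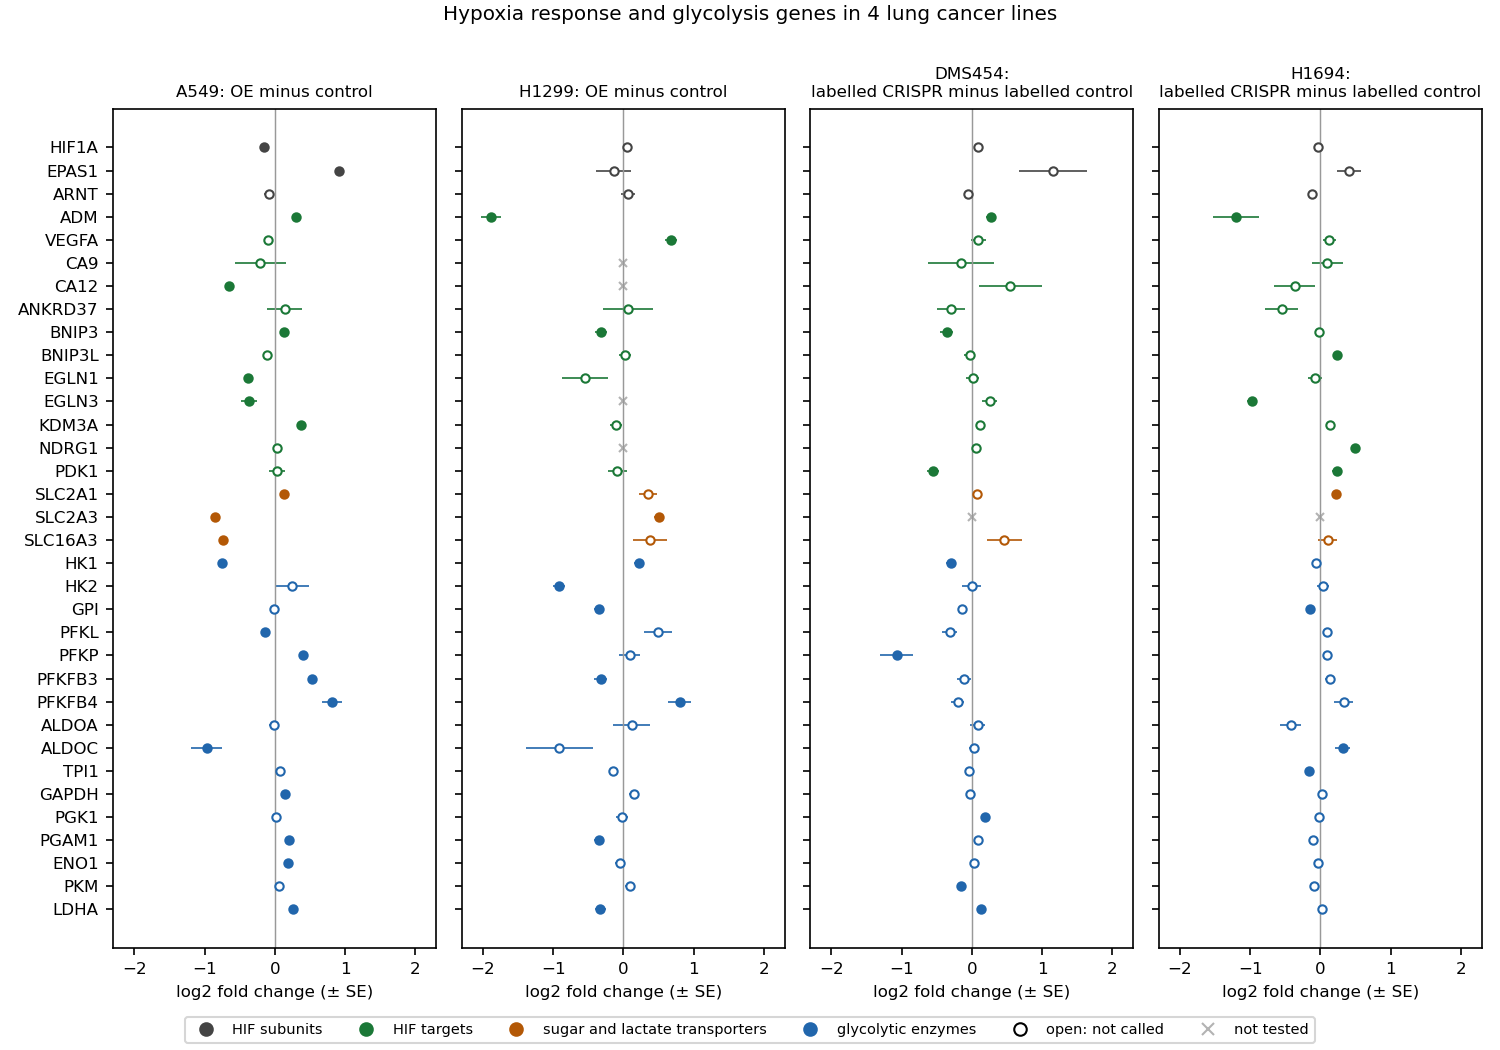
Log2 fold change (x axis, ± SE from limma, n = 3 libraries per group) of each of the 34 genes (y axis) in the 4 lines, as OE minus control in A549 and H1299 and labelled CRISPR minus labelled control in DMS454 and H1694. Filled points were called and open points were not, crosses mark genes not tested, and most points lie within 1 unit of 0, with ADM in H1299 (-1.89) the farthest.

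In H1299, 4 members rose and 7 fell, 11 of 30 tested, compared with 28.8% of all 16192 genes tested (13.5% higher and 15.3% lower). PFKFB4, VEGFA, SLC2A3 and HK1 rose, and ADM and HK2 fell the most. CA9 and CA12 had no row in the table, and EGLN3 and NDRG1 averaged under 10 normalized counts in both groups and were not tested. The groups did not overlap for 15 of the 30, compared with 43.3% of all genes. The members' median log2 fold change was 0.0019 and that of all genes 0.0018.

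None of the 3 HIF subunits was called in H1299, where HIF1A changed by 0.06 (adjusted p = 0.549). ADM was at 544, 425 and 483 normalized counts in the controls and 113, 126 and 152 in the OE libraries (log2 fold change -1.89, SE 0.14, adjusted p = 9.82e-05), 3.70-fold lower with no overlap. VEGFA (ENSG00000112715, chr6:43770184-43786487, GRCh38), the main vessel growth factor, was at 518, 484 and 546 normalized counts in the controls and 789, 868 and 829 in the OE libraries (log2 fold change 0.68, SE 0.09, adjusted p = 0.000812). ADM fell and VEGFA rose, both with no overlap between the groups. BNIP3 fell by 0.32 on the log2 scale. PDK1, the kinase that closes pyruvate dehydrogenase, was not called (-0.09), nor were KDM3A, BNIP3L, EGLN1 and ANKRD37.

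The glucose transporter SLC2A3 was at 1024, 1082 and 1084 normalized counts in the controls and 1529.7, 1488 and 1498 in the OE libraries (log2 fold change 0.50, SE 0.07, adjusted p = 0.00126), higher in every OE library. SLC16A3 was at 5256, 3083 and 3191 normalized counts in the controls and 3548, 5725 and 5656 in the OE libraries (log2 fold change 0.38, adjusted p = 0.275). Its control 1 stood with OE 2 and 3, and OE 1 stood with controls 2 and 3. HK2 (ENSG00000159399, chr2:74833981-74893359, GRCh38), the hexokinase that many tumours induce, was at 1298, 1238 and 1230.2 normalized counts in the controls and 622, 735 and 645 in the OE libraries (log2 fold change -0.91, SE 0.09, adjusted p = 0.000235), 1.88-fold lower in the OE cells. HK1, the other hexokinase, rose by 0.23.

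GPI, the second enzyme of the pathway, was at 9769.8, 9061 and 8776 normalized counts in the controls and 6901, 7379 and 7368 in the OE libraries (log2 fold change -0.35, SE 0.07, adjusted p = 0.00717). Falls of the same order were called for PGAM1 (-0.35), LDHA (-0.33) and PFKFB3 (-0.32). PFKFB4, a low-level transcript, was at 59.3, 55.2 and 58.2 normalized counts in the controls and 114, 87.6 and 104 in the OE libraries (log2 fold change 0.80, SE 0.16, adjusted p = 0.00703). With every library it was the only member called in the same direction in A549 and H1299. The 16 enzymes together took 1.28% to 1.34% of the reads in the controls and 1.38% to 1.43% with OE.

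Without control 1 and OE 1 of H1299, which stood apart in GC content, 23 members were called, 11 higher and 12 lower, while 54.9% of all genes tested were called, compared with 28.8% with every library. All 11 calls made with every library were kept, and 12 were added, 7 higher and 5 lower. The largest added changes were those of ALDOC (-1.64, from -0.91 with every library), PFKL (0.87, from 0.49), SLC16A3 (0.86, from 0.38), ALDOA (0.61, from 0.12) and SLC2A1 (0.57, from 0.35), all as log2 fold changes. The part of GC content in these values was not tested. ADM, HK2, SLC2A3 and VEGFA were called under every alternative other than the size threshold. The summed neuroendocrine markers took 0.0519% to 0.0554% of the reads in the controls and 0.0665% to 0.0685% with OE, and their part in the values was not tested. Without control 2, control 3 or OE 3, 7 members were called. BNIP3 was lost without each of these 3 (adjusted p 0.0859 to 0.0955), LDHA and HK1 also without OE 2 (0.0705 to 0.08 for LDHA and 0.125 to 0.145 for HK1), and PFKFB3 without any 1 of the 6 libraries (0.0502 to 0.126). In the authors' deposited table the adjusted p of HK1 was 0.068, and that of PFKL, not called here with every library, was 0.041.

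**Figure D2:**
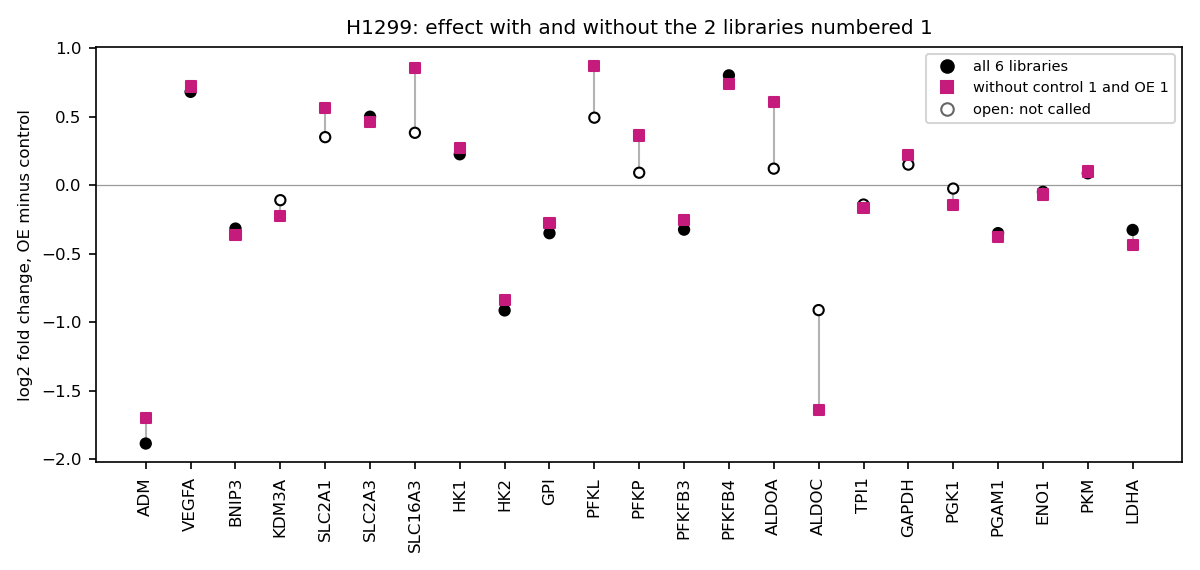
Log2 fold change of OE minus control in H1299 (y axis) for the 23 genes called with or without the libraries numbered 1 (x axis), with all 6 libraries (circles) and without control 1 and OE 1 (squares), and open symbols not called. SLC16A3, PFKL, ALDOA and ALDOC moved the most, and ADM, HK2, VEGFA and SLC2A3 were called in both.

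The effect of overexpression differed between A549 and H1299 for 17 of the 30 members tested in both, compared with 41.2% of all 14578 genes. The A549 effect minus the H1299 effect was above 0 for 11 of them and below 0 for 6. ADM differed the most, at 2.19 (SE 0.15, adjusted p = 1.3e-07) on the log2 scale. SLC2A3 differed by -1.36 (SE 0.08, adjusted p = 4.82e-08), falling in A549 and rising in H1299, and HK1 did likewise with -0.98 (SE 0.08, adjusted p = 8.98e-07). The differences were 1.16 (SE 0.16, adjusted p = 5.27e-05) for HK2, which was called in H1299 only, and 1.05 (SE 0.19, adjusted p = 0.000464) for EPAS1, which was called in A549 only. PFKFB3, which rose in A549 and fell in H1299, differed by 0.85 (SE 0.09, adjusted p = 4.55e-06), LDHA by 0.58 (SE 0.09, adjusted p = 0.000107) and PGAM1 by 0.55 (SE 0.07, adjusted p = 2.29e-05).

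Called in both lines were 8 members. PFKFB4 rose in both and its effects differed by 0.02 (SE 0.20, adjusted p = 0.958). The other 7 went in opposite directions, namely ADM, BNIP3, PFKFB3, PGAM1 and LDHA, which rose in A549 and fell in H1299, and SLC2A3 and HK1, which fell in A549 and rose in H1299. Among all genes, 4.41% were called in both lines in the same direction and 12.5% in opposite directions. Without control 1 and OE 1 of H1299, 21 members differed between the lines, as did 58.1% of all genes. SLC2A1, PFKP, ALDOC and GAPDH were then also called in both lines in the same direction. KDM3A, ENO1, SLC16A3 and PFKL were then also called in both, in opposite directions. The shares of all genes called in both lines were not counted for that set of libraries.

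**Figure D3:**
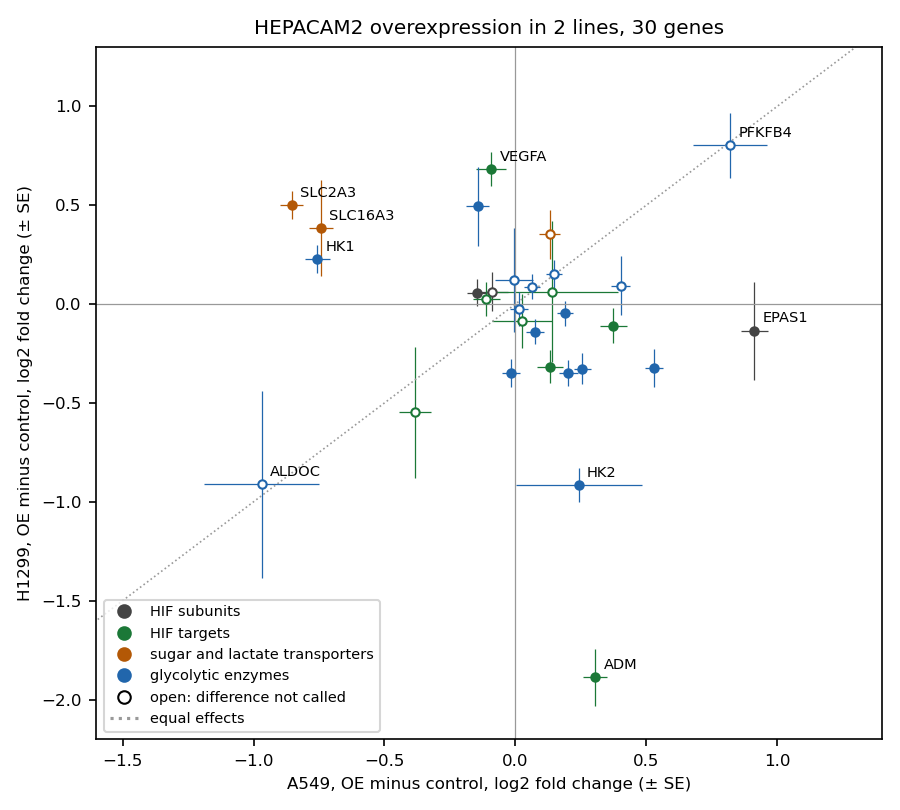
Log2 fold change with HEPACAM2 overexpression in A549 (x axis) and H1299 (y axis), ± SE (n = 3 libraries per group), for the 30 genes tested in both, with filled points where the difference was called and the dotted line at equal effects. PFKFB4 lies on the line in the upper right, ADM and HK2 lie below it, and SLC2A3, SLC16A3 and HK1 lie in the upper left.

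In DMS454, 3 members were higher and 5 lower in the libraries labelled CRISPR, 8 of 33 tested, compared with 18.9% of all 18868 genes tested (9.15% higher and 9.72% lower). ADM, PGK1 and LDHA were higher, and PFKP, PDK1, BNIP3, HK1 and PKM were lower. The groups did not overlap for 13 of the 33, compared with 36.6% of all genes. The members' median log2 fold change was 0.013 and the median absolute change 0.132, compared with 0.163 for all genes.

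No HIF subunit was called in DMS454. EPAS1, nearly absent there, was at 10.9, 4.63 and 2.78 normalized counts in the labelled controls and 15, 8.88 and 16.6 in the libraries labelled CRISPR (log2 fold change 1.15, SE 0.48, adjusted p = 0.115). ADM was at 1177, 1099 and 1118 normalized counts in the labelled controls and 1483, 1368 and 1250.0 in the libraries labelled CRISPR (log2 fold change 0.27, SE 0.07, adjusted p = 0.0124), with every library labelled CRISPR above every labelled control. PDK1 (ENSG00000152256, chr2:172555373-172608669, GRCh38), which keeps pyruvate out of mitochondrial oxidation, was at 876, 897 and 951 normalized counts in the labelled controls and 572, 575 and 723 in the libraries labelled CRISPR (log2 fold change -0.55, SE 0.09, adjusted p = 0.0011). BNIP3 was at 5355, 5416 and 5523 normalized counts in the labelled controls and 3879, 3921 and 4988 in the libraries labelled CRISPR (log2 fold change -0.36, SE 0.09, adjusted p = 0.0251). For PDK1 and BNIP3 the library labelled CRISPR 3 lay between the other CRISPR libraries and the labelled controls. The other 9 targets were not called, with log2 fold changes from -0.30 (ANKRD37) to 0.55 (CA12).

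The transporter SLC2A3 was close to absent in DMS454, at 0 to 2.22 normalized counts, and was not tested, while SLC2A1 changed by 0.08 (adjusted p = 0.218). Among the enzymes PFKP changed the most. PFKP (ENSG00000067057, chr10:3066333-3137712, GRCh38) was at 510.5, 473 and 509 normalized counts in the labelled controls and 195, 191 and 354 in the libraries labelled CRISPR (log2 fold change -1.07, SE 0.23, adjusted p = 0.0212), 2.10-fold lower. HK1 was at 1032, 999 and 955 normalized counts in the labelled controls and 823, 729.5 and 878 in the libraries labelled CRISPR (log2 fold change -0.30, SE 0.07, adjusted p = 0.0119), also lower in each library labelled CRISPR. PGK1, the first step of glycolysis to make ATP, was at 9462, 9543 and 9408 normalized counts in the labelled controls and 10793, 10771 and 10801 in the libraries labelled CRISPR (log2 fold change 0.19, SE 0.03, adjusted p = 0.0025). PKM, the pyruvate kinase of the last step, was lower by 0.15 on the log2 scale, and LDHA was higher by 0.13. The 16 enzymes together took 0.793% ± 0.0102 of the reads in the labelled controls and 0.795% ± 0.0184 in the libraries labelled CRISPR (SD, n = 3), and the groups overlapped.

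PDK1, PGK1 and PKM were called in DMS454 under every alternative other than the size threshold. Without the library labelled CRISPR 3, 14 members and 34.9% of all genes were called, and PFKP changed by -1.36 and BNIP3 by -0.48 on the log2 scale. Leaving out any 1 of the other 5 libraries left 3 or 4 calls and 10.4% to 12.4% of all genes called. PFKP and BNIP3 were then lost with each of the 5 (adjusted p 0.0529 to 0.0753 and 0.0606 to 0.084), as was LDHA (0.0717 to 0.172). ADM was lost without labelled control 2, labelled control 3 or CRISPR 1 (0.0609 to 0.0726), and the HK1 call without labelled control 1, labelled control 2 or CRISPR 2 (0.0506 to 0.0659). With no filter on low values PFKP and BNIP3 had adjusted p values of 0.116 and 0.157. LDHA was also lost with edgeR (0.0542), DESeq2 (0.101) and the replicate number as a block (0.0503). In the authors' deposited table LDHA was at 0.081, and the other calls were under 0.05. PFKL, not called here with every library (adjusted p = 0.0858 by limma), was at 0.00903 in the deposited table. The summed neuroendocrine markers overlapped between the groups (1.04% to 1.05% and 0.979% to 1.08% of the reads). The alveolar and airway markers took 0.00522% to 0.00553% in the labelled controls and 0.00380% to 0.00427% in the libraries labelled CRISPR, and their part in the values was not tested.

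In H1694, 5 members were higher and 4 lower in the libraries labelled CRISPR, 9 of 33 tested, compared with 17.6% of all 17780 genes tested (8.73% higher and 8.9% lower). NDRG1, ALDOC, BNIP3L, PDK1 and SLC2A1 were higher, and ADM, EGLN3, TPI1 and GPI were lower. The groups did not overlap for 17 of the 33, compared with 35% of all genes. The median absolute log2 fold change was 0.126 for the members and 0.139 for all genes.

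EGLN3 (ENSG00000129521, chr14:33924231-34462774, GRCh38), the hydroxylase that HIF itself induces, was at 853, 769.5 and 779 normalized counts in the labelled controls and 416, 402 and 402 in the libraries labelled CRISPR (log2 fold change -0.97, SE 0.07, adjusted p = 5.51e-08), 1.96-fold lower with no overlap. NDRG1, a gene induced by stress and differentiation, was at 823, 866 and 828 normalized counts in the labelled controls and 1214, 1133 and 1214 in the libraries labelled CRISPR (log2 fold change 0.50, SE 0.05, adjusted p = 9.8e-06). BNIP3L, a mitochondrial receptor like BNIP3, was at 1782, 1821 and 1678 normalized counts in the labelled controls and 2143, 2009 and 2068 in the libraries labelled CRISPR (log2 fold change 0.24, SE 0.05, adjusted p = 0.00278). These 3 calls, 2 higher and 1 lower in the libraries labelled CRISPR, held under every alternative other than the size threshold. ADM, low in this line, was at 77, 45.8 and 50.9 normalized counts in the labelled controls and 13.5, 31.7 and 31.8 in the libraries labelled CRISPR (log2 fold change -1.20, SE 0.33, adjusted p = 0.0245). The lowest ADM value was that of CRISPR 1. PDK1 was at 642, 575 and 563 normalized counts in the labelled controls and 732, 679 and 682 in the libraries labelled CRISPR (log2 fold change 0.24, SE 0.07, adjusted p = 0.0248), higher in every library labelled CRISPR, opposite to DMS454.

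Among the H1694 transporters SLC2A1 was higher by 0.22, and no SLC2A3 read was counted in any of the 6 libraries. With 148533875 reads in the line, a count of 0 allows up to 3 reads, or 0.0202 RPM, for counting error only. ALDOC was at 206, 217 and 178 normalized counts in the labelled controls and 246, 246 and 254 in the libraries labelled CRISPR (log2 fold change 0.31, SE 0.10, adjusted p = 0.0436). TPI1 (-0.16) and GPI (-0.15) were lower by small amounts, and the other 13 enzymes were not called. The 16 enzymes together took 0.889% to 0.929% of the reads in the labelled controls and 0.841% to 0.939% in the libraries labelled CRISPR.

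Single libraries decided several H1694 calls, and some calls were also lost with every library kept. With DESeq2 the adjusted p was 0.0515 for PDK1 and 0.118 for ALDOC. In the authors' deposited table these were at 0.058 and 0.134, and the other calls were under 0.05. ALDOC was also lost with no filter (0.0545), and ADM with the replicate number as a block (0.0547). ADM was lost without labelled control 1 or 3 (adjusted p = 0.105 and 0.0622), PDK1 without labelled control 2, labelled control 3 or CRISPR 2 (0.0609 to 0.111), and SLC2A1 without labelled control 2 or 3 (0.121 and 0.057). GPI was lost without labelled control 2, labelled control 3 or CRISPR 2 (0.0529 to 0.0624), TPI1 without labelled control 1, labelled control 2, CRISPR 2 or CRISPR 3 (0.051 to 0.101), and ALDOC without any library other than CRISPR 1 (0.0562 to 0.176). Without CRISPR 1, 17 members and 25.3% of all genes were called. Without labelled control 2 or 3, 4 members were called, and 10.3% and 12% of all genes. The summed neuroendocrine markers took 0.336% to 0.339% of the reads in the labelled controls and 0.300% to 0.313% in the libraries labelled CRISPR, the endothelial markers 0.0131% to 0.0134% and 0.0150% to 0.0156%, the fibroblast markers 0.00605% to 0.00643% and 0.00474% to 0.00565%, and the epithelial markers 0.00144% to 0.00169% and 0.00122% to 0.00136%. None of these overlapped between the groups. The alveolar and airway markers (0.00282% to 0.00304% and 0.00249% to 0.00294%) and the blood markers did overlap. Called genes went both ways among the neuroendocrine (1 higher and 3 lower) and fibroblast markers (1 higher and 1 lower). Of the endothelial markers 1 was called higher, and of the epithelial markers 2 were called lower. The part of the markers in the values was not tested.

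**Figure D4:**
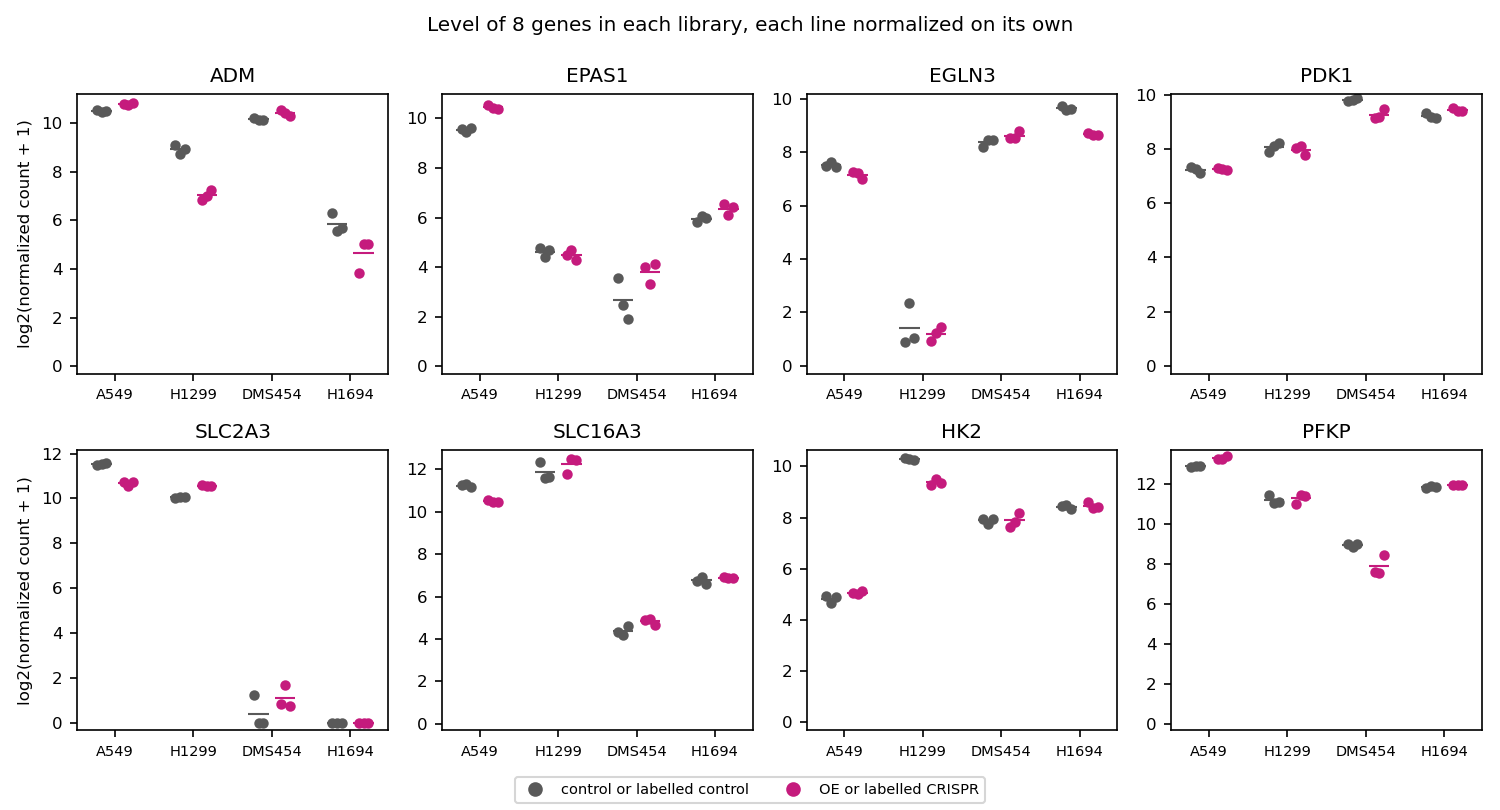
Level of 8 of the genes in every library as log2(normalized count + 1) (y axis), with 3 control or labelled control libraries (grey) and 3 OE or labelled CRISPR libraries (pink) per line (x axis) and bars at the group means, each line normalized on its own. ADM separates the arms in all 4 lines, upward in A549 and DMS454 and downward in H1299 and H1694, and SLC2A3 is at or near 0 in DMS454 and H1694.

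The effects differed between DMS454 and H1694 for 9 of the 33 members, compared with 20.2% of all 15460 genes tested in both. ADM differed by 1.47 (SE 0.40, adjusted p = 0.0244) as DMS454 minus H1694, EGLN3 by 1.22 (SE 0.12, adjusted p = 5.32e-06), PFKP by -1.16 (SE 0.28, adjusted p = 0.0168), PDK1 by -0.78 (SE 0.12, adjusted p = 0.000248) and NDRG1 by -0.44 (SE 0.07, adjusted p = 0.000453). ADM and PDK1 were called in both lines, in opposite directions, and no member was called in both in the same direction. Among all genes 2.26% were called in both lines in the same direction and 2.34% in opposite directions. The difference of ADM was lost without DMS454 CRISPR 1, DMS454 CRISPR 2 or H1694 labelled control 1 (adjusted p 0.0502 to 0.052). It was also lost with the replicate number as a block (adjusted p = 0.0938 by limma). The differences of EGLN3, NDRG1, PDK1 and PFKP held under every alternative run.

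Across the 4 lines, ADM was called in all of them, up in A549 and DMS454 and down in H1299 and H1694. BNIP3, HK1 and LDHA were called in 3 lines, 10 members in 2 and 16 in 1. Of all genes tested, 44.4% were called in A549, 28.8% in H1299, 18.9% in DMS454 and 17.6% in H1694. The share of all genes called in several of the 4 lines was not counted, so nothing particular to the members is read from these counts. The 4 members called in no line were ALDOA, ANKRD37, ARNT and CA9, although ALDOA was called in H1299 without its libraries numbered 1. ALDOA shares 42.3% of its exon bases with an overlapping gene on the same strand, so its level is uncertain. Copies of GAPDH, PGK1, LDHA, ENO1, TPI1, PGAM1 and PKM elsewhere in the genome make their counts uncertain too, since how such reads were counted is not stated in the sources used here. The summed shares of the 16 enzymes given for each line include these genes and carry the same uncertainty.

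The control levels of the members differed widely between the lines. They are given in RPKM as the mean of 3 control or labelled control libraries, with no test because each line was normalized on its own. GAPDH was the highest member in every line, at 1557 in A549, 1677 in H1299, 686 in DMS454 and 1372 in H1694, a range of 2.44-fold. The transporters differed far more. SLC2A3 was at 24.1 in A549, 9.66 in H1299, 0.00338 in DMS454 and 0 in H1694. SLC16A3 was at 13.5 in A549 (library range 12.8 to 14), 23.9 in H1299 (19.4 to 32.9), 0.102 in DMS454 and 0.505 in H1694. SLC2A1, in contrast, was present in all, at 29.6 in DMS454, 21.5 in A549, 18.4 in H1299 and 8.95 in H1694, and the libraries of A549 (21.4 to 21.7) and H1299 (16.5 to 21.9) overlapped.

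Paralogous enzymes stood in different ratios in the lines. HK2 was at 11.6 in H1299, about the level of HK1 there (11.8), but at 0.228 in A549 against 15.7 for HK1. PFKP was at 80.7 in A549, 32.6 in H1694 and 27.7 in H1299, and at 4.73 in DMS454, where PFKL was at 19.8. PFKFB3 was at 70 in A549 and between 2.46 and 5.12 in the other lines. ALDOC was highest in DMS454 (14.4) and lowest in H1299 (0.254). LDHA was at 221 in A549, 105 in H1299, 67.7 in DMS454 and 55.5 in H1694.

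Among the HIF genes, EPAS1 was at 5.16 in A549, 0.351 in H1694, 0.183 in H1299 and 0.0384 in DMS454, while HIF1A ranged only from 25.1 in DMS454 to 50.4 in H1694. The libraries of DMS454 (23.8 to 26) and H1299 (25 to 26.5) overlapped for HIF1A. CA12 was at 82.8 in A549 and at 0.0636 and 0.119 in DMS454 and H1694. NDRG1 was at 25.3 in DMS454 and 0.0169 in H1299, BNIP3 at 46.9 in DMS454 and between 5.54 and 12.3 in the others. VEGFA was at 6.83 in DMS454, 2.88 in A549, 2 in H1299 and 1.14 in H1694. ADM was at 26.5 in A549, 19.2 in DMS454, 9.96 in H1299 and 0.893 in H1694.

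**Figure D5:**
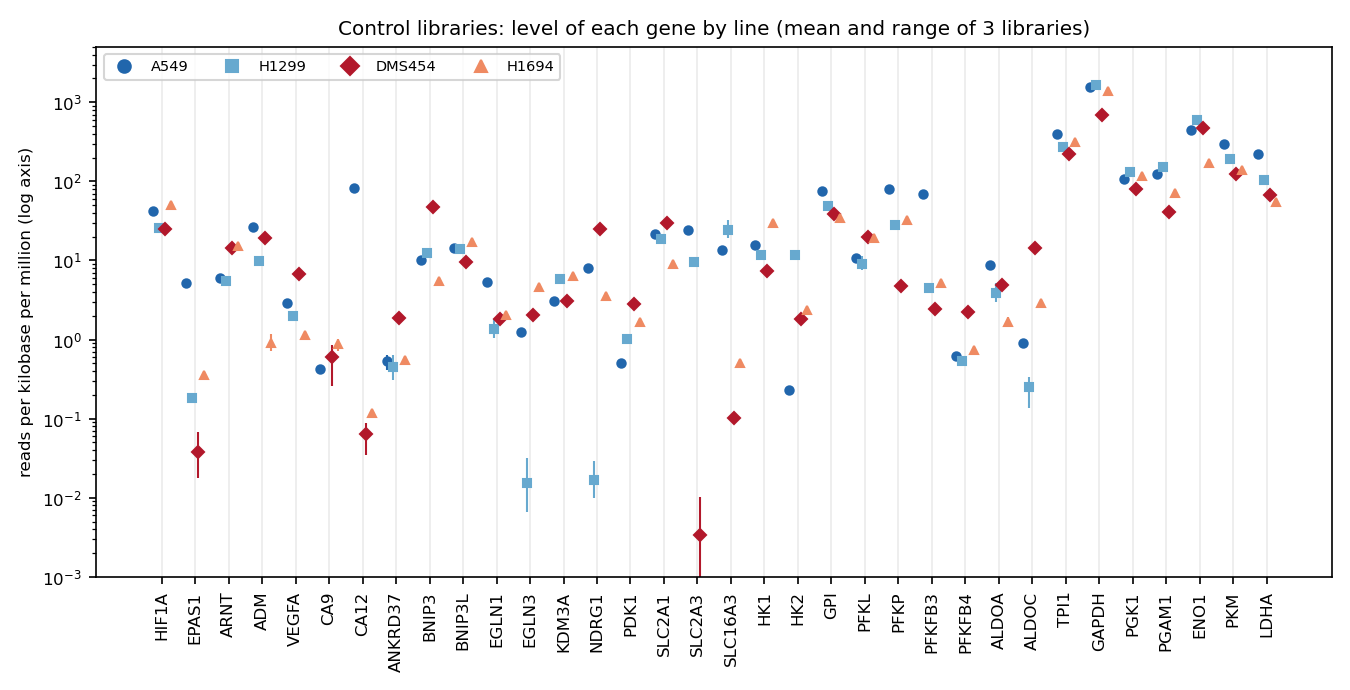
RPKM (y axis, log scale) of the 34 genes (x axis) in the control or labelled control libraries of the 4 lines, as the mean (symbol) and the range of 3 libraries (line, cut at 0.001). GAPDH, TPI1, PGK1 and PKM lie close together across lines, while CA12, NDRG1, EGLN3, SLC16A3 and EPAS1 are spread the most among the genes detected in every table that holds them, and genes at 0 or with no row are not drawn.

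Other genes of these pathways were counted from lists of HIF regulators, further HIF targets, further glycolysis genes, pyruvate dehydrogenase and its regulators, the pentose phosphate pathway and gluconeogenesis. Their counts stand beside 44.4% of all genes called in A549, 28.8% in H1299, 18.9% in DMS454 and 17.6% in H1694, and nothing particular to a list is read from them. Among the further HIF targets the counts were 9 higher and 14 lower of 37 tested in A549, 10 higher and 6 lower of 38 tested in H1299, 4 higher and 2 lower of 37 tested in DMS454 and 6 higher and 8 lower of 33 tested in H1694. In A549 the log2 fold changes of this list ran from -1.10 to 1.87. STC1, a secreted calcium regulator, rose in A549 and H1299 (log2 fold changes 1.17 and 0.70). TFRC, the transferrin receptor, fell by 1.55 on the log2 scale in H1299, and DDIT4, an inhibitor of mTOR signalling, rose by 1.21. In the libraries labelled CRISPR, RAB20 (-1.13) and ENO2 (-0.87) were lower in DMS454, and LOX, a collagen-crosslinking enzyme, was lower in H1694 (-1.53). ENO2 is also in the list of further glycolysis genes and is counted in both lists.

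Among the regulators of HIF the counts were 4 higher and 1 lower of 14 tested in A549, 1 higher and 1 lower of 13 tested in H1299, 2 higher and 0 lower of 14 tested in DMS454 and 1 higher and 0 lower of 15 tested in H1694. VHL, which binds hydroxylated HIF alpha, was higher in DMS454 (0.50), and the coactivators CREBBP (0.42) and EP300 (0.31) rose in A549. The further glycolysis genes gave 4 higher and 6 lower of 18 tested in A549, 4 higher and 2 lower of 16 tested in H1299, 2 higher and 3 lower of 21 tested in DMS454 and 0 higher and 1 lower of 19 tested in H1694.

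At the exit of glycolysis, PDK4, a kinase that shuts pyruvate dehydrogenase, was at 3426, 3383 and 2895 normalized counts in the controls and 595, 647 and 483 in the OE libraries of A549 (log2 fold change -2.50, SE 0.14, adjusted p = 0.000105). In H1299 it rose at a low level and was at 23.6, 24.5 and 31.2 normalized counts in the controls and 74.9, 57.1 and 77.3 in the OE libraries (log2 fold change 1.37, SE 0.22, adjusted p = 0.00224). Pyruvate dehydrogenase and its regulators counted 3 higher and 5 lower of 11 tested in A549, 4 higher and 4 lower of 11 tested in H1299, 2 higher and 0 lower of 11 tested in DMS454 and 0 higher and 0 lower of 10 tested in H1694.

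The pentose phosphate pathway branches off after the hexokinase step and makes NADPH. Its counts were 1 higher and 4 lower of 7 tested in A549, 3 higher and 2 lower of 7 tested in H1299, 0 higher and 4 lower of 7 tested in DMS454 and 0 higher and 2 lower of 7 tested in H1694. PGD, TKT and TALDO1 were lower in DMS454, with log2 fold changes from -0.43 to -0.25. The lowest log2 fold change of this list there was -0.68, in a gene not named here. For gluconeogenesis the counts were 1 higher and 3 lower of 4 tested in A549, 3 higher and 0 lower of 4 tested in H1299, 0 higher and 1 lower of 7 tested in DMS454 and 0 higher and 0 lower of 4 tested in H1694. PCK2, the mitochondrial enzyme that makes phosphoenolpyruvate, fell in A549 (-0.87) and rose in H1299 (1.17), and FBP1, which reverses the phosphofructokinase step, was lower in DMS454 (-0.73).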

How the data were processed

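Reads were trimmed, aligned with STAR to hg38 and analysed with DESeq2 by the authors, per the submitters' processing notes. The counting method is not given in the sources used here, nor are versions or the annotation. Each deposited level of a gene in a library is a signal, namely a count divided by the authors' size factor, as is the deposited mean. The authors' deposited fold changes are on the log2 scale, their Wald statistic is a score, and their p-values are raw and adjusted.

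Whole reads were recovered from every deposited signal within 0.01. Genes with a mean of at least 10 in 1 group (values scaled by the authors) were tested per line with limma 3.58.1 (trend, robust; R 4.3.3) on log2(value + 1) with p-values adjusted by Benjamini and Hochberg and a threshold of 0.05, and differences between lines with 4 group means. The tests were also tried on simulated data, with the same noise setting for every gene and no library set apart from its group. No result given here rests on that trial. Levels between genes used GENCODE 29 exon lengths and total recovered reads. Alternatives were TMM scaling, no filter, a filter at 50, pseudocount 5, a size threshold of 0.5 on the absolute log2 fold change (counts only), a replicate block, a normal test of differences between lines, edgeR 4.0.16, DESeq2 1.42.0, H1299 without its libraries numbered 1, and each library left out.

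Members and lists were chosen with earlier results of these data known. Values per library are given for HEPACAM2, ADM and, per line, the 6 called members with the largest change and a mean of at least 50. Other members are given by their changes or counts. From each other list up to 4 called genes by the same rule could be named per line, and the text names a selection of them. The libraries of HIF1A and CA12 in A549 and SLC16A3 in H1299 and EPAS1 in DMS454 are also shown, chosen after the values were seen.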

Additional observations from a re-analysis of the deposited data

Results flagged for a closer look

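For 17 members the effect of HEPACAM2 overexpression differed between A549 and H1299 by a test of the difference itself (limma, adjusted p under 0.05 over all genes tested in both lines). As A549 minus H1299 on the log2 scale, the differences above 0 were 2.19 for ADM, 1.16 for HK2, 1.05 for EPAS1, 0.85 for PFKFB3, 0.58 for LDHA, 0.55 for PGAM1, 0.48 for KDM3A, 0.45 for BNIP3, 0.33 for GPI, 0.24 for ENO1 and 0.22 for TPI1. Those below 0 were -1.36 for SLC2A3, -1.13 for SLC16A3, -0.98 for HK1, -0.78 for VEGFA, -0.64 for PFKL and -0.21 for HIF1A. The call was lost in at least 1 alternative for HIF1A, PFKL, TPI1 and ENO1.

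For 9 members the difference between the libraries labelled CRISPR and labelled control differed between DMS454 and H1694 by the same test. As DMS454 minus H1694 it was 1.47 for ADM, 1.22 for EGLN3 and 0.20 for PGK1 above 0, and -1.16 for PFKP, -0.78 for PDK1, -0.53 for PFKFB4, -0.44 for NDRG1, -0.40 for PFKL and -0.34 for BNIP3 below 0. PFKL and PFKFB4 were called in neither line on its own, although PFKL in DMS454 had an adjusted p of 0.00903 in the authors' deposited table. The call of the difference was lost in at least 1 alternative for ADM, BNIP3, PFKFB4, PFKL and PGK1.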

How the results depend on the processing

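With a size threshold of 0.5 on the absolute log2 fold change, DMS454 and H1694 each kept 2 calls, H1299 5 and A549 8. Without control 1 and OE 1 of H1299, 23 members were called there and the EGLN1 difference between A549 and H1299 turned to -0.42. TMM scaling, the other filters and pseudocount, edgeR, DESeq2 and the normal test of differences kept every count within 1.5 times of that reported. With each library left out in turn, H1694 had 4 to 17 calls, DMS454 3 to 14, H1299 7 to 13 and A549 20 to 22, and differences ran from 14 to 18 (A549 and H1299) and 5 to 12 (DMS454 and H1694). An arm left with fewer libraries borrows its spread from the other libraries and genes.

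Among members called under at least 1 setting, values that changed sign on leaving out 1 library were all of members not called with every library. In H1299 they were PGK1 at 0.0031, 0.0256 and 0.0014 (range over single libraries left out -0.0997 to 0.0256), ALDOA at -0.0211 and -0.0529 (-0.0529 to 0.366) and PFKP at -0.0013 (-0.0013 to 0.24), and in DMS454 ENO1 at -0.0018 (-0.0018 to 0.057). Among the differences between A549 and H1299 they were EGLN1 at -0.0579 and -0.2029 (-0.2029 to 0.418), ALDOA at 0.0144 and 0.0462 (-0.373 to 0.0462) and PGK1 at -0.0113 (-0.0113 to 0.114). Of the 79 effects and differences called under no setting, 37 changed sign in at least 1. Calls that held under every alternative other than the size threshold were 19 of 21 in A549, 4 of 11 in H1299, 3 of 8 in DMS454 and 3 of 9 in H1694, and 13 of 17 and 4 of 9 differences.

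Same-numbered libraries deviated with correlations from -0.538 to 0.123, and in no line were all 3 above 0.1, nor did every library correlate best with its own number, so the numbers were not taken to pair the libraries. With the replicate number as a block the calls were 21 in A549, 4 in H1299, 7 in DMS454 and 10 in H1694, and the differences 13 and 8, without that of ADM between DMS454 and H1694 (adjusted p = 0.0938 by limma). Depth limits members with means under 50 normalized counts in both groups, namely CA9, ANKRD37 outside DMS454, EPAS1 in DMS454 and H1299, ALDOC in H1299, HK2 in A549, SLC16A3 in DMS454 and CA12 in DMS454 and H1694, beside those not tested.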
